A study of Mus musculus with 12 samples.

Results

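The genes described here are 38 genes of the skeletal muscle fibre, coding for the sarcomere, for calcium release and reuptake, and for the energy supply of contraction. They were chosen by name as genes of muscle, and all 38 had a row above 0 among the 22769 genes kept from the mRNA table. The RNA came from 4T1 tumours, which grow from an epithelial mouse mammary carcinoma line, and the genes serve here as a measure of muscle in the sampled tissue. The stress group comprised tumours of Balb/c mice under chronic restraint lasting 2 hours daily over 28 days. The control group comprised tumours of untreated Balb/c mice. All tumours were taken 35 days post inoculation. For each group 3 mRNA and 3 miRNA libraries were sequenced. The labels give neither the site of inoculation nor the mouse behind each library, so the p-values below measure the spread between libraries, which may be technical.

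Skeletal muscle contracts when myosin motors of the thick filament pull on the actin of the thin filament, with titin and nebulin as molecular rulers. A nerve impulse opens the ryanodine receptor of the sarcoplasmic reticulum, the released calcium binds troponin, and a calcium pump then returns it to the store. Fast fibres and slow fibres use separate genes for many of these proteins, and most muscles of the mouse limb and trunk consist largely of fast fibres. A small set of miRNAs, the myomiRs, is made in muscle together with these genes.

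Mature sequences of myomiRs are shown because these miRNAs were counted in separate libraries and gave a readout of muscle RNA that the mRNA table did not use. Of 14 muscle miRNAs considered, 7 had a mature sequence in RefSeq (GRCm38.p6), and the 4 that tie most closely to the fibre types follow, 5′ to 3′, with the seed (bases 2 to 8) in capitals.
mmu-miR-206-3p: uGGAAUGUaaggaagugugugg
mmu-miR-133b-3p: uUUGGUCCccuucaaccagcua
mmu-miR-499-5p: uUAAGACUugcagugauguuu
mmu-miR-208b-3p: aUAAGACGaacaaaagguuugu
The 4 seeds differ from each other, those of miR-499-5p and miR-208b-3p only in the last base. miR-206 and miR-133b lie on the plus strand of chromosome 1, at chr1:20679055-20679076 and chr1:20682834-20682855, and their precursor genes are 3686 bases apart. miR-208b lies on the minus strand at chr14:54975710-54975731, in an intron of the slow myosin gene Myh7. miR-499 lies on the plus strand at chr2:155622893-155622913, in an intron of the related gene Myh7b.

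Promoters were available in RefSeq for 29 of the 38 genes, as 36 start sites with a window of 300 bases around each. The promoters of Myh4, the fastest myosin heavy chain, and Acta1, the actin of the skeletal muscle thin filament, are shown because these genes had widely varying mRNA levels. Capitals mark every match, on either strand, to an E-box (CANNTG, bound by myogenic factors such as MyoD), to TATAAA, to a MEF2 site and to a CArG box (bound by serum response factor).
Myh4: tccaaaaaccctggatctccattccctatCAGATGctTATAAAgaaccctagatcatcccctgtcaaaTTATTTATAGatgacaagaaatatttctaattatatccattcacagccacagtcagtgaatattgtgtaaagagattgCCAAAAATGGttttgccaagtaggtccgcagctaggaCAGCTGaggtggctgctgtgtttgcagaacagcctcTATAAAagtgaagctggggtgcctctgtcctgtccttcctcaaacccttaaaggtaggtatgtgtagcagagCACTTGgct
Acta1: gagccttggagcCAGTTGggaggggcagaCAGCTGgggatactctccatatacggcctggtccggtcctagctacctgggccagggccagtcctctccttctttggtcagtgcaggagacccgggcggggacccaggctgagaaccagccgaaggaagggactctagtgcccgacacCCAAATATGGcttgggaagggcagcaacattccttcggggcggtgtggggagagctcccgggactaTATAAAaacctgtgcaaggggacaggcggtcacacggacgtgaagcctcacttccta
The Myh4 promoter spans chr11:67237562-67237861 on the plus strand and the Acta1 promoter chr8:123894726-123895025 on the minus strand, in GRCm38.p6. Myh4 held a CArG box at positions -104 to -95 from the start and a MEF2 site at positions -182 to -173, where a reverse TATAAA overlapped the MEF2 site. Acta1 held a CArG box at positions -73 to -64. Positions count from the RefSeq start, which differs from that of GENCODE for both genes. In GENCODE Myh4 begins at chr11:67238029, downstream of the window shown, and Acta1 at chr8:123894751, inside it. Among the 36 promoters of the muscle genes, 13.9% held a CArG box, those of Acta1, Ldb3, Myh4 and Myom1, compared with 1.63% of all 32851 promoters of the same length. A MEF2 site stood in 13.9%, against 3.19% of all promoters. TATAAA stood in 19.4% of the muscle gene promoters and 13.6% of all, and an E-box in 83.3% and 72.3%. A match is a run of letters and not a bound site.

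The mRNA table gives normalized log2 values of unknown depth, as deposited, in a form that compresses the spread of weakly expressed genes. Fold values computed from them are on that compressed scale. The miRNA libraries held 1738056 to 2674483 counts in stress and 2090783 to 3202224 counts in control. For the muscle genes 2 libraries stood apart from their groups before any test: stress 3 had the lowest value of all 6 libraries for 36 of the 38 genes, and control 1 had the lowest of the 3 control values for 36 of the 38. Control 1 was below stress 1 or stress 2 for 25 of the 38 genes. In bulk tissue, fewer muscle cells and less RNA per muscle cell cannot be told apart. Nor can RNA of these genes from muscle be told from RNA of other cells.

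All 38 genes had a lower group mean in stress than in control, where 49.4% of all tested genes did, and no single difference passed the test. Of the 36 genes whose mean log2 value reached 4, which entered limma, 0 had an adjusted p under 0.05, where 0.0355% of all 14098 tested genes did. Their adjusted p ran between 0.154 and 0.540. An unadjusted p under 0.05 was found for 13 of the 36, all lower in stress, where 9.15% of all tested genes had such a p with a lower value in stress. All stress libraries lay below all control libraries for 12 of the 38 genes, 11 of them among the 36 tested, where 12.3% of all tested genes did so. The median difference of the 36 genes, stress minus control, was -0.67 on the log2 scale, and that of all tested genes was 0.0014. Without stress 3 the median difference of the 36 genes was -0.44, and without control 3 it was -0.49.

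The separation of single libraries was wider than that of the groups. After each of the 36 genes was centred on its own mean, the median over genes was -0.12, -0.05 and -0.79 in stress 1, 2 and 3, against -0.14, 0.55 and 0.75 in control 1, 2 and 3. Stress 1, stress 2 and control 1 were therefore at nearly the same level, stress 3 was below them, and control 2 and control 3 were above. The median of control 1 minus stress 1 over the genes was 0.01. As a share of the summed level of all genes (powers of 2 of the deposited values), the 38 genes made up 0.0731%, 0.0826% and 0.0353% in the stress libraries, against 0.0703%, 0.135% and 0.166% in the control libraries. The groups overlapped through control 1.

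**Figure D1:**
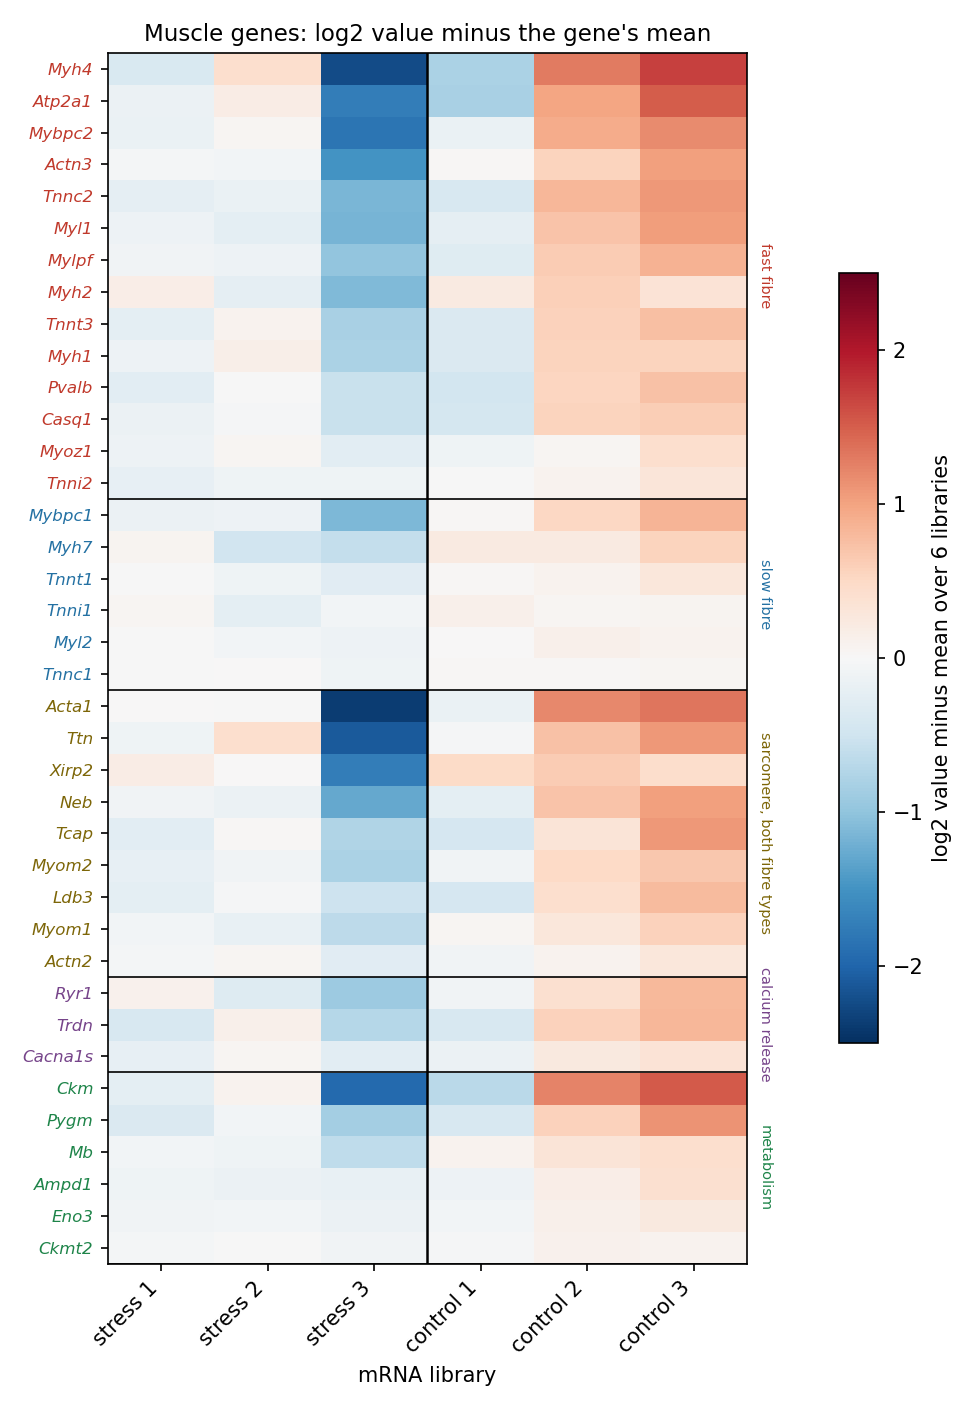
Each row is one of the 38 muscle genes and each column an mRNA library, stress to the left of control, with the colour giving the log2 value minus the gene's mean over the 6 libraries. Stress 3 is the lowest library for 36 of the 38 genes, and control 1 resembles stress 1 and stress 2 more than control 2 and control 3.

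The muscle genes were among the most variable of the whole table. The range over the 6 libraries had a median of 1.56 for the 36 genes and 0.26 for all tested genes. Of the 141 genes with the widest ranges, 1 in 100 of those tested, 20 were muscle genes of this group, and 6 of them ranked among the 10 widest: Myh4, Acta1, Ckm, Atp2a1, Ttn and Mybpc2. Of the 705 widest, 27 were. Above a mean level of 5, the median range grew with level among the muscle genes and not among genes in general. At a mean level of 5 to 6 the median range was 0.86 for muscle genes and 0.262 for all genes, and at 10 to 11 it was 3.46 for 4 muscle genes and 0.239 for all. Eno3, at a mean level of 10.31, and Tnni2, at 9.82, had ranges of only 0.40 and 0.51. How the compression of weakly expressed genes bears on this trend was not tested.

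**Figure D2:**
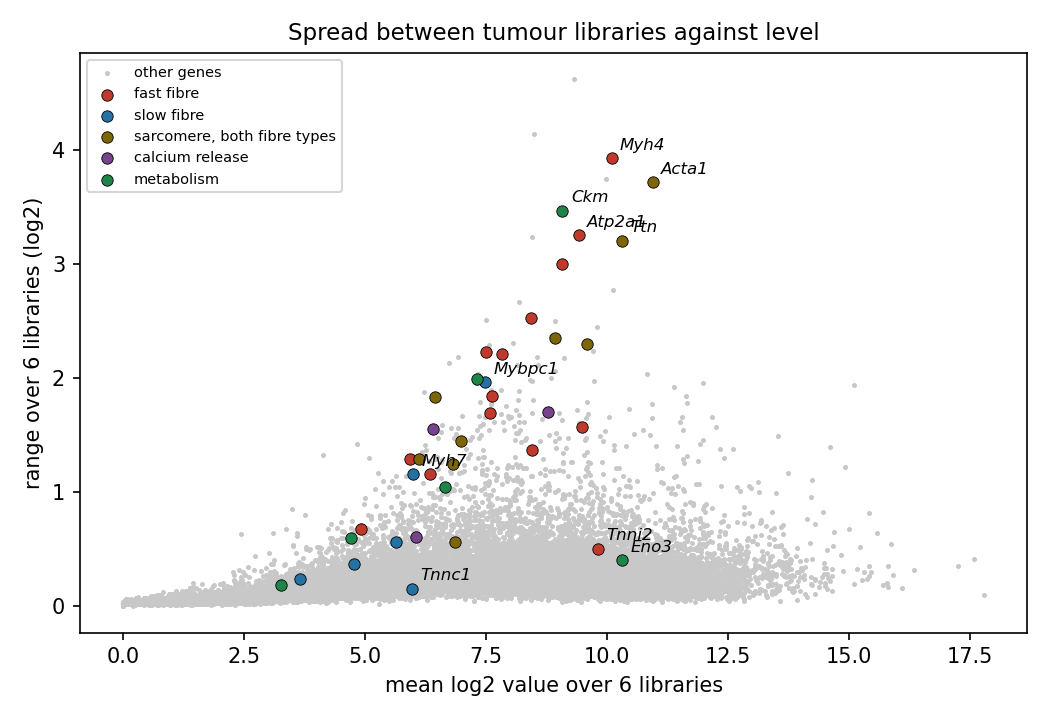
Each point is a gene by its mean log2 value (x axis, genes above 0), set against its range over the 6 mRNA libraries (y axis, log2), with the 38 muscle genes coloured. Myh4, Acta1, Ckm, Atp2a1, Ttn and Mybpc2 have the widest ranges of the 38, while Tnnc1 at 0.16, Eno3 at 0.40 and Tnni2 at 0.51 lie among the other genes.

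The fast fibre genes included the most variable motor gene. Myh4, the myosin heavy chain of the fastest fibres, had log2 values of 9.71, 10.52 and 7.87 in stress 1, 2 and 3, against 9.30, 11.39 and 11.80 in control 1, 2 and 3. Control 1 lay below stress 1 and stress 2, so the groups overlapped. The means were 9.37 ± 1.36 in stress and 10.83 ± 1.34 in control (SD, n = 3 each), a difference of -1.46 with an SE of 0.85, which corresponds to 2.75-fold lower, and it did not pass the test (limma adjusted p = 0.414). It was -0.71 without stress 3, -0.97 without control 3 and -2.22 without control 1. Myh4 lies at chr11:67238029-67260446 on the plus strand, next to Myh2 and Myh1, which code for the motors of the intermediate fast fibres. These 3 neighbours have similar sequences, so the division of reads among them is uncertain. Myh1 had a difference of -0.52 (adjusted p = 0.442 in limma) with overlapping groups. Myh2 had 7.76, 7.37 and 6.49 in stress, against 7.82, 8.19 and 7.93 in control, a difference of -0.77 with no overlap between the groups (limma adjusted p = 0.262).

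Calcium handling in fast fibres varied in the same order of libraries. Atp2a1, the calcium pump of fast sarcoplasmic reticulum (SERCA1), had log2 values of 9.26, 9.61 and 7.68 in stress, against 8.61, 10.40 and 10.93 in control. Control 1 was below stress 1 and stress 2, and the difference of -1.13 (SE 0.71) did not pass the test (limma adjusted p = 0.442). It was -0.55 without stress 3, -0.66 without control 3 and -1.82 without control 1. Casq1, the calcium store protein of the reticulum, differed by -0.48, and Pvalb, the soluble calcium buffer parvalbumin, by -0.55, both with overlapping groups.

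Mybpc2, the fast myosin binding protein C, had log2 values of 8.91, 9.11 and 7.25 in stress, against 8.90, 10 and 10.25 in control. The groups overlapped through control 1, and the difference was -1.29 (SE 0.55; limma adjusted p = 0.292). Actn3, the alpha-actinin of fast fibre Z-discs, had 8.39, 8.37 and 6.94 in stress and 8.46, 9.00 and 9.47 in control. Its groups did not overlap, though stress 1 and control 1 were close, and the difference of -1.08 did not pass the test (limma adjusted p = 0.271). Without stress 3 the difference was -0.71 for Mybpc2 and -0.59 for Actn3.

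The fast troponins showed how unlike each other genes of one complex were. Tnnt3, the subunit that anchors troponin to tropomyosin, had log2 values of 9.25, 9.57 and 8.68 in stress, against 9.13, 10.06 and 10.25 in control, a difference of -0.65 with overlapping groups (limma adjusted p = 0.368). Tnnc2, the calcium sensor, differed by -1.01. Tnni2, the inhibitory subunit, had 9.62, 9.72 and 9.72 in stress, against 9.81, 9.91 and 10.13 in control. The Tnni2 groups did not overlap, stress 3 was not the lowest library, and its range of 0.51 ranked 1872 of 14098 although its mean level was close to that of Tnnt3. Its difference of -0.27 (SE 0.09) did not pass the test (limma adjusted p = 0.197). Among the other fast fibre genes, the light chains Mylpf and Myl1 differed by -0.79 and -1.02, and Myoz1, a Z-disc protein that binds calcineurin, by -0.24. Over the 14 fast fibre genes the median difference was -0.78, with 4 at an unadjusted p under 0.05 in limma, where 9.15% of all tested genes were lower in stress at such a p. In 3 of the 14 the groups did not overlap, against 12.3% of all tested genes with stress below control. Without stress 3 the median difference of the 14 was -0.46.

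The slow fibre genes were lower in level per length than most fast fibre genes, and none passed the test. Myh7, the slow myosin heavy chain, had log2 values of 6.05, 5.52 and 5.39 in stress, against 6.21, 6.22 and 6.55 in control. All stress libraries were below all control libraries, with means of 5.65 ± 0.35 in stress and 6.33 ± 0.19 in control (SD, n = 3 each). The difference of -0.67 (SE 0.18; 1.60-fold lower) had the smallest adjusted p of the 36 genes and did not pass the test (limma adjusted p = 0.154). Mybpc1, the slow myosin binding protein C, had 7.34, 7.35 and 6.37 in stress, against 7.51, 8.01 and 8.34 in control, a difference of -0.93 without overlap (SE 0.31; limma adjusted p = 0.215).

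Slow troponin genes differed little. Tnnt1, the slow tropomyosin-binding subunit, had log2 values of 5.63, 5.52 and 5.35 in stress, against 5.67, 5.72 and 5.91 in control, a difference of -0.27 without overlap (limma adjusted p = 0.217). Tnnc1, the calcium sensor of slow and cardiac troponin, had 5.95, 5.98 and 5.86 in stress, against 5.99, 5.99 and 6.02 in control. The 6 Tnnc1 values spanned 0.16, a range that ranked 11639 of 14098, and its adjusted p of 0.540 in limma was the largest of the 36. Tnni1, the slow inhibitory subunit, differed by -0.17, with its lowest value in stress 2 and its highest in control 1. Myl2, the slow and ventricular regulatory light chain, had a mean log2 value under 4 and was not tested; it ran from 3.54 to 3.64 in stress and from 3.66 to 3.78 in control. Over the 5 tested slow genes the median difference was -0.27, with 3 at an unadjusted p under 0.05 in limma (9.15% of all tested genes, lower in stress) and 4 without overlap (12.3% of all tested genes). Where the mean log2 value had to reach 6, only 1 slow gene remained, at -0.93, against a median of -0.90 for 12 fast genes. How expression level bears on the gap between the fast and slow medians was not tested.

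**Figure D3:**
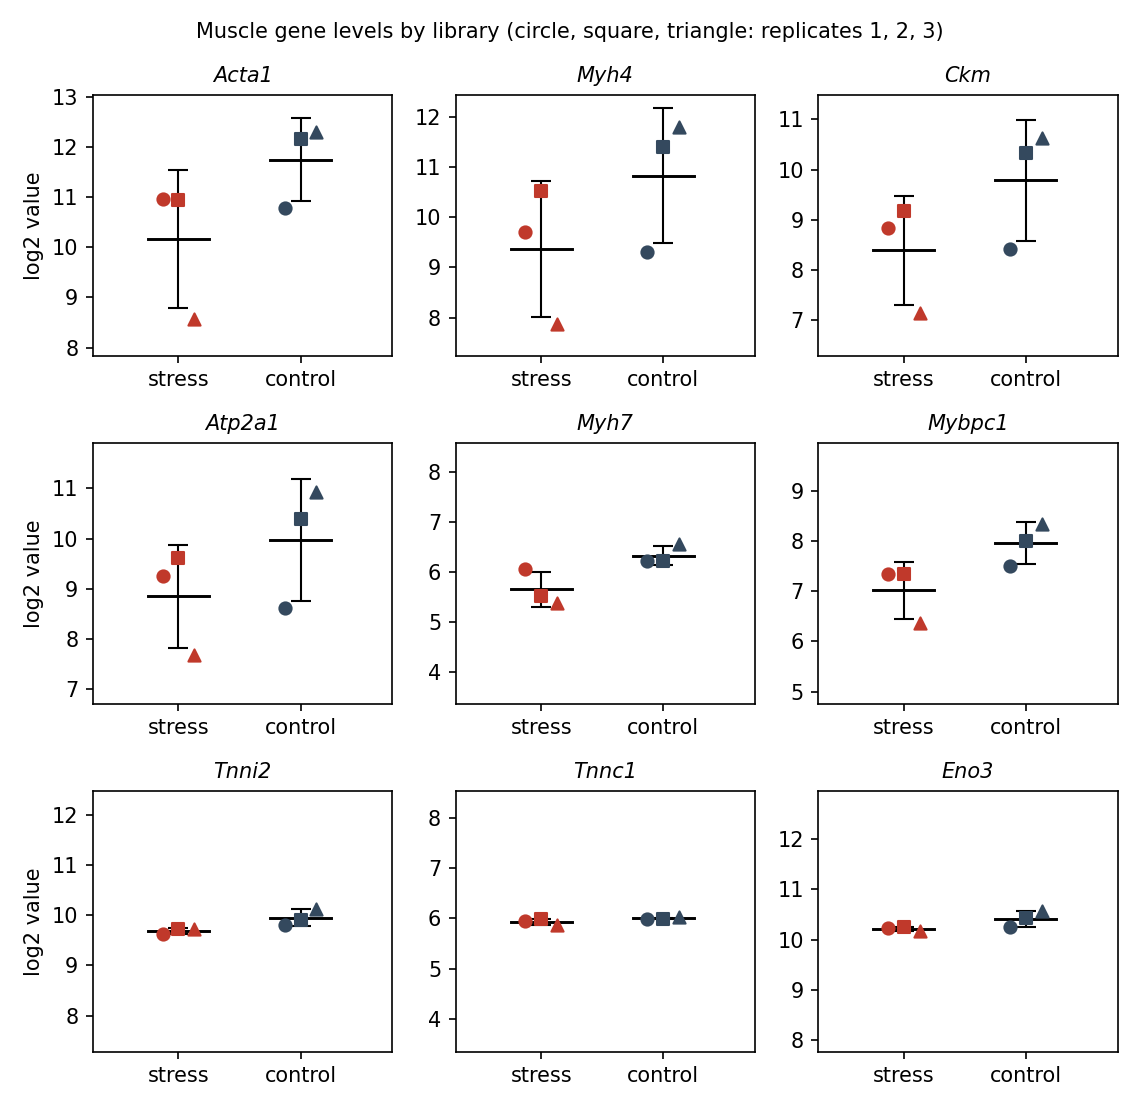
Log2 values of named muscle genes are plotted per mRNA library, stress to the left of control, with the mean as a line and the SD as bars (n = 3 each). Acta1, Myh4 and Ckm reach their lowest point in stress 3 and are high in control 2 and control 3, whereas Myh7 values of 5.39 to 6.05 in stress lie below 6.21 to 6.55 in control.

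Fast genes were set against their slow counterparts per length of transcript, since levels of different genes compare only on that scale. The deposited values were taken as not yet scaled for length, which the sources used here do not state. All per-length levels and shares given here rest on that assumption. The log2 difference of Myh4 minus Myh7 was 3.72, 5.05 and 2.53 in stress, against 3.14, 5.22 and 5.30 in control. It averaged 3.77 ± 1.26 in stress and 4.55 ± 1.23 in control (SD, n = 3 each), so the groups differed by less than the spread within them. Tnnc2 minus Tnnc1 was 1.38, 1.41 and 0.54 in stress, against 1.16, 2.38 and 2.61 in control, with overlap through control 1. Mybpc2 minus Mybpc1 was 1.69, 1.87 and 1.0 in stress, against 1.51, 2.11 and 2.03 in control. The fast gene was above its slow counterpart in every library for each of these 3 pairs, and its excess was smallest in stress 3. Mylpf minus Myl2, Myh2 minus Myh7 and Tnnt3 minus Tnnt1 were also smallest in stress 3, with overlapping groups. The remaining pairs of the 8 compared were not smallest there. Tnni2 minus Tnni1 stayed between 5.36 and 5.75 in stress and between 5.48 and 5.85 in control. Myh1 minus Myh7 was 2.32, 3.11 and 2.30 in stress, against 1.92, 2.83 and 2.51 in control, lowest in control 1. The slow genes Tnnc1 and Myl2 ranged over only 0.16 and 0.24, against 2.23 for Tnnc2 and 1.84 for Mylpf. The differences of both pairs therefore largely restate the level of the fast gene. How the compression of weakly expressed genes bears on the pairs was not tested.

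Among the 4 adult myosin heavy chains, summed per length, Myh4 made up 58.5%, 71.4% and 41.6% in stress, against 52.6%, 75.5% and 80.8% in control. Myh1 made up 22.2%, 18.5% and 35.4% in stress, against 22.6%, 14.4% and 11.7% in control. Myh7 made up 4.45%, 2.15% and 7.19% in stress, against 5.98%, 2.02% and 2.05% in control. Myh4 was thus the largest of the 4 in every library, its share was smallest in stress 3 and largest in control 3, and the groups overlapped. The deposited values compress the spread of weakly expressed genes. Whether that reaches Myh7, and how it bears on these shares, was not tested.

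**Figure D4:**
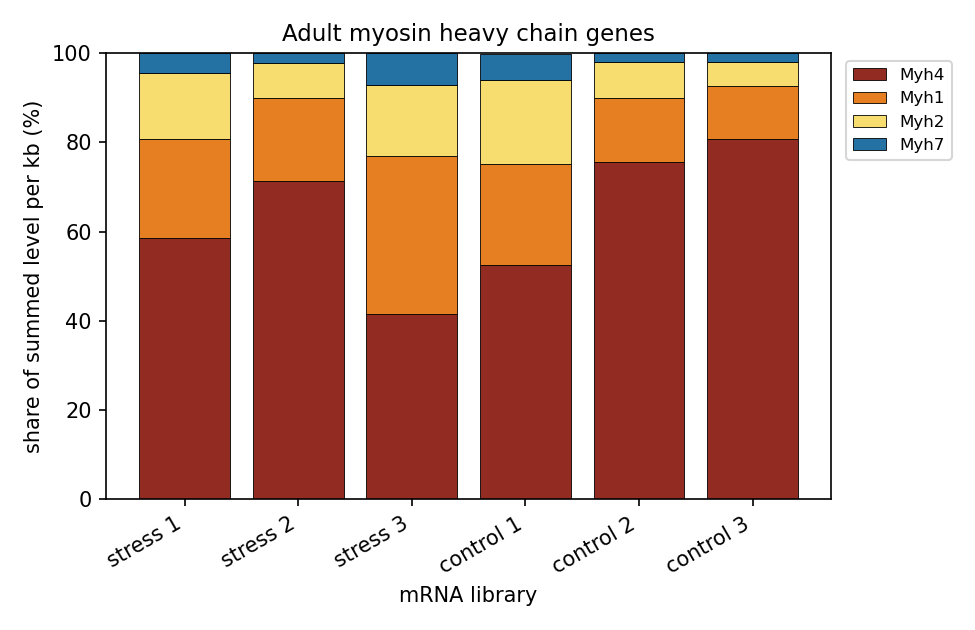
Stacked bars give each myosin heavy chain's percent of the summed per-length level of Myh4, Myh1, Myh2 and Myh7 in each mRNA library, stress to the left of control. Myh4 takes from 41.6% in stress 3 to 80.8% in control 3, and stress 1 and control 1 look alike at 58.5% and 52.6%.

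Among the sarcomere genes common to both fibre types, Acta1 had the highest mean level of the whole set. Acta1 had log2 values of 10.96, 10.95 and 8.58 in stress, against 10.79, 12.15 and 12.29 in control. Control 1 was below stress 1 and stress 2, so the groups overlapped. The means were 10.16 ± 1.37 in stress and 11.75 ± 0.83 in control (SD, n = 3 each), and the difference of -1.58 (SE 0.71; 3.00-fold lower) was the largest of the 36 with all libraries and did not pass the test (limma adjusted p = 0.312). Without stress 3 it was -0.79. Without stress 2 or without control 1 the largest difference was that of Myh4, at -2.04 and -2.22. Per length Acta1 was also the most abundant of the 38 genes, with a mean log2 level of 10.42, followed by Tnni2 at 10.20, Eno3 at 9.66 and Tnnt3 at 9.38.

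The molecular rulers were also lowest in stress 3 and highest in control 3. Ttn, which codes for titin, the spring from Z-disc to M-band, had log2 values of 10.20, 10.73 and 8.20 in stress, against 10.28, 11.04 and 11.40 in control, a difference of -1.20 with overlap (SE 0.64; limma adjusted p = 0.382). Neb, which codes for nebulin of the thin filament, had 9.51, 9.45 and 8.33 in stress, against 9.36, 10.32 and 10.63 in control, a difference of -1.0 with overlap (limma adjusted p = 0.282). Xirp2, an actin-binding repeat protein of striated muscle, had 9.12, 8.94 and 7.21 in stress, against 9.41, 9.56 and 9.37 in control. Its groups did not overlap, the 3 control values lay close together, and the difference was -1.03 (limma adjusted p = 0.323). Without stress 3 the difference was -0.44 for Ttn, -0.62 for Neb and -0.42 for Xirp2.

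Myom1 and Myom2, the myomesins that cross-link thick filaments at the M-band, differed by -0.61 and -0.73, both without overlap (limma adjusted p = 0.180 and 0.206). Tcap, the titin cap of the Z-disc, differed by -0.65, Ldb3, a Z-disc scaffold, by -0.52, and Actn2, the other alpha-actinin of muscle, by -0.19, all with overlapping groups. Over the 9 shared sarcomere genes the median difference was -0.73 with all libraries and -0.44 without stress 3.

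The 3 genes of calcium release had a median difference of -0.68, and of -0.43 without control 3. Ryr1, the ryanodine receptor that releases calcium from the store, had log2 values of 8.89, 8.47 and 7.89 in stress, against 8.70, 9.20 and 9.60 in control. Trdn, which codes for triadin and ties the receptor to calsequestrin, had 6.0, 6.52 and 5.68 in stress, against 6.01, 6.97 and 7.23 in control. Cacna1s, the voltage sensor of the transverse tubule, had 5.85, 6.12 and 5.79 in stress, against 5.91, 6.30 and 6.40 in control. In each of the 3 control 1 lay below at least 1 stress library. The differences were -0.75, -0.68 and -0.28, and none passed the test (limma adjusted p between 0.269 and 0.361).

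Genes of the muscle energy supply split by how variable they were. Ckm, the cytosolic creatine kinase of muscle, had log2 values of 8.84, 9.17 and 7.15 in stress, against 8.41, 10.32 and 10.62 in control, a difference of -1.40 with overlap (SE 0.71; 2.63-fold lower; limma adjusted p = 0.364). Pygm, muscle glycogen phosphorylase, had 6.95, 7.25 and 6.47 in stress, against 6.91, 7.89 and 8.45 in control, a difference of -0.86 with overlap (limma adjusted p = 0.316). Control 1 was the lowest control library for both. The difference of Ckm was -0.78 without stress 3, and that of Pygm -0.51 without control 3.

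Mb, which codes for the oxygen store myoglobin, had log2 values of 6.57, 6.53 and 6.02 in stress, against 6.73, 6.96 and 7.07 in control. Its groups did not overlap, and the difference was -0.55 (SE 0.16; limma adjusted p = 0.175). Eno3, the muscle enolase of glycolysis, had 10.22, 10.25 and 10.16 in stress, against 10.24, 10.43 and 10.56 in control, a difference of -0.20 with overlap (limma adjusted p = 0.277). Its range of 0.40 ranked 3182 of 14098. Ampd1, the AMP deaminase of muscle, differed by -0.29, and Ckmt2, the mitochondrial creatine kinase of muscle, had a mean log2 value under 4, was not tested and stood at 3.18 to 3.26 in stress and 3.24 to 3.37 in control.

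In the separate miRNA libraries, the library numbered stress 3 was again the lowest for the myomiRs. miR-1a-3p, a myomiR that represses non-muscle transcripts, had 34000, 30912 and 175 counts in stress 1, 2 and 3, against 34427, 150786 and 174911 counts in control 1, 2 and 3. These are 1.27%, 1.54% and 0.0101% of all miRNA counts in stress, against 1.65%, 5.44% and 5.46% in control. The exact Clopper-Pearson interval of the share in stress 3 runs from 0.00863% to 0.0117% at 95%, for counting error only, since reads are not independent molecules. Stress 3 was 120-fold below the mean of stress 1 and stress 2, and control 3 was 516-fold above stress 3, in CPM, that is counts scaled to library size. All stress libraries lay below all control libraries, with control 1 at 1.23 times stress 1.

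The group difference of miR-1a-3p was a log2 fold change of -2.26, or 4.79-fold lower in stress, and did not pass the test (edgeR adjusted p = 0.406). Of the 462 miRNAs tested, edgeR called 0, or 0%, with 110 at an unadjusted p under 0.05, and DESeq2 called 41, 10 higher and 31 lower in stress. None of the 8 tested muscle miRNAs was called by either tool, and 2 of the 8 had an unadjusted p under 0.05 in edgeR. In 5 of the 8, all stress libraries were below all control libraries, where 14.3% of all tested miRNAs were. Without stress 3 the log2 fold change of miR-1a-3p was -1.68.

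miR-133a-3p, which shares a transcript with miR-1a, had 1866, 1999 and 6 counts in stress, against 2157, 8860 and 11809 in control (log2 fold change -2.33; edgeR adjusted p = 0.393). Its passenger strand miR-133a-5p had 67, 70 and 1 counts in stress, against 62, 288 and 351 in control (-2.08; edgeR adjusted p = 0.208). Stress 3 was the lowest library for both strands. The counts of miR-1a and miR-133a cannot be divided between the precursor genes that give the same mature sequence.

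The cluster of miR-206 and miR-133b, whose sequences are given above, was also lowest in stress 3. miR-206-3p, enriched in skeletal muscle and scarce in heart, had 569, 403 and 18 counts in stress, against 611, 1924 and 2022 in control (-2.01; edgeR adjusted p = 0.212). miR-133b-3p had 354, 429 and 2 counts in stress, against 467, 1944 and 2225 in control (-2.33; edgeR adjusted p = 0.288). In both, control 1 was the lowest control library and lay nearest to stress 1 and stress 2. miR-1a-3p, miR-133a-3p, miR-133b-3p and miR-206-3p together made up 1.38%, 1.68% and 0.0116% of counts in stress, against 1.80%, 5.90% and 5.96% in control. With miR-133a-5p they hold the 5 widest ranges over libraries of all 462 tested miRNAs.

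The myomiRs inside slow myosin genes were scarce. miR-499-5p had 26, 6 and 1 counts in stress, against 23, 39 and 58 in control (-1.61; edgeR adjusted p = 0.203). Scaled to library size, stress 1 and control 1 were close, at 9.82 and 10.5 CPM, and the groups did not overlap. The log2 fold change was -3.01 without stress 1 and -1.20 without stress 3. miR-208b-3p, in the intron of Myh7, had 1, 1 and 0 counts in stress, against 0, 3 and 2 in control, too few to test. miR-208a-3p, the miRNA of the cardiac myosin gene Myh6, had 0 counts in every library, which allows up to 3 counts per library.

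miR-486, which muscle shares with red blood cells, did not follow the others. miR-486a-5p had 2180, 863 and 1376 counts in stress, against 542, 2515 and 2234 in control, and miR-486b-5p had 2233, 897 and 1401 in stress, against 549, 2628 and 2311 in control. The highest and the lowest libraries of both were controls, and stress 3 was not low. Their log2 fold changes were 0.13 and 0.11 (edgeR adjusted p = 0.910 and 0.911).

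**Figure D5:**
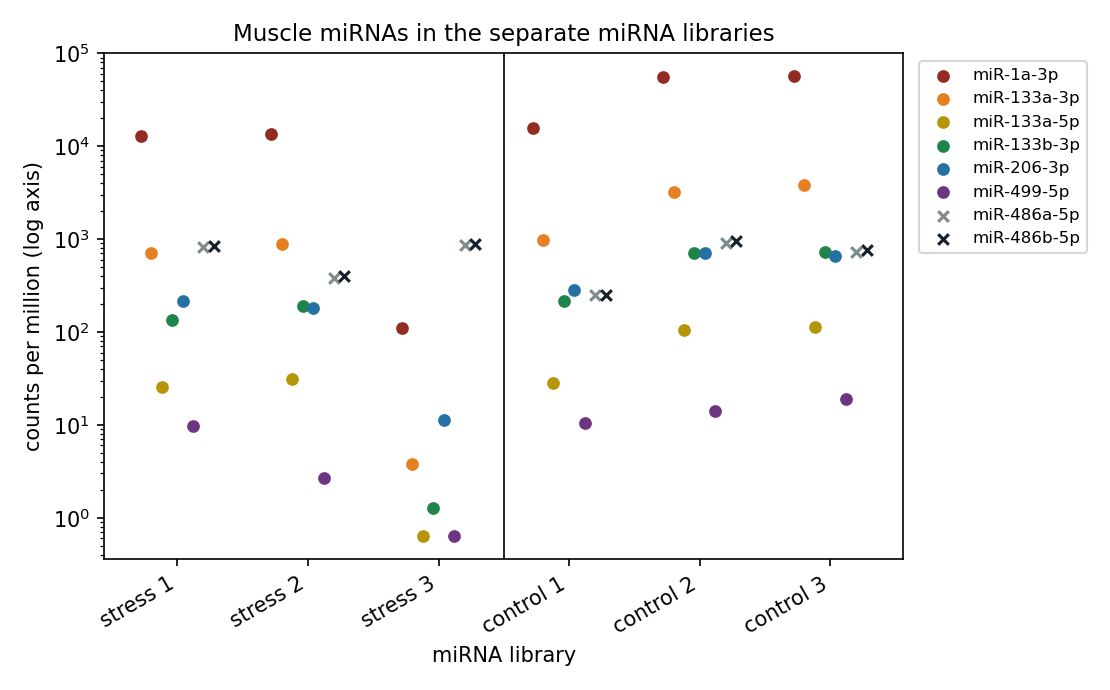
CPM (log axis) of the 8 tested muscle miRNAs in each miRNA library, stress to the left of control, with miR-486a-5p and miR-486b-5p drawn as crosses that almost coincide. miR-1a-3p stands at 12800, 13700 and 111 CPM in stress against 15800, 55000 and 57000 CPM in control, while the crosses are not low in stress 3.

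Library numbers ran in a like order in both assays. By the median profile of the muscle genes, the rank from high to low was 4, 3 and 6 for stress 1, 2 and 3 and 5, 2 and 1 for control 1, 2 and 3. By miR-1a-3p CPM it was 5, 4 and 6 for stress and 3, 2 and 1 for control. The labels do not say that an mRNA and a miRNA library of one number came from one tumour.

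Muscle genes outside the 38 were counted as lists. Of 8 tested further fast fibre genes 7 were lower in stress by group mean, of 6 further slow fibre genes 6, and of 27 further genes of muscle structure 26, with median differences of -0.31, -0.18 and -0.29 and 0 passing limma in any. Of all tested genes 49.4% were lower in stress. Some counted genes differed little, such as Stac3 and Tmod4 at -0.04 each and Atp2a2 at -0.08. Jsrp1, a junctional reticulum protein, differed by -0.29 (limma adjusted p = 0.111). Mylk2, the skeletal myosin light chain kinase, differed by -0.38 (limma adjusted p = 0.212). Casq2, the calsequestrin of slow and cardiac muscle, differed by -0.27 and Myoz2, a slow fibre Z-disc protein, by -0.23 (limma adjusted p = 0.139 and 0.190). In the structural list, Synpo2l, a Z-disc protein, differed by -0.48 and Jph2, which joins reticulum to surface membrane, by -0.37 (limma adjusted p = 0.129 and 0.165). Des, which codes for the muscle intermediate filament desmin and also marks smooth muscle, had log2 values of 10.21, 10.03 and 8.30 in stress, against 10.58, 10.61 and 11.07 in control; it was named after its values were seen.

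Muscle precursor genes were mostly under the minimum level for testing. Of 15 genes of satellite cells, myogenic commitment and embryonic myosin, 9 had a mean log2 value under 4, among them Pax7, Myf5, Myod1, Myh3 and Myh8. Of the 6 tested, 4 were lower in stress, with a median difference of -0.17 and 0 passing limma. Cdh15, the M-cadherin of muscle precursors, differed by -0.27 and Myog, the myogenic factor of differentiation, by -0.47 (limma adjusted p = 0.171 and 0.191).

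Genes linked with muscle wasting were mostly higher in stress by group mean, and none passed the test. Of 10 tested, 2 were lower and 8 higher in stress by group mean, with a median difference of 0.10 and 0 passing limma. Foxo3, a factor that drives atrophy genes, had log2 values of 10.46, 10.42 and 10.47 in stress, against 10.09, 10.26 and 9.98 in control, a difference of 0.34 (limma adjusted p = 0.120). Mt1, a glucocorticoid- and metal-responsive metallothionein, differed by 0.79 (limma adjusted p = 0.165). The muscle ubiquitin ligases Fbxo32 and Trim63, named after their values were seen, differed by 0.08 and -0.28. Most of these genes are also expressed outside muscle.

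Markers of other cells were set beside the muscle genes. Of the cardiac genes, Myl7 was at 0 in all libraries or had no row. Myh6 was at 2.73 to 2.88 in stress and 2.73 to 2.91 in control, with Tnni3, Mybpc3, Nppa and Ryr2 under the minimum too. Of 4 cardiac genes tested, 3 were lower in stress (median -0.10), with Myl4 at -0.47 and Tnnt2 at -0.17 (limma adjusted p = 0.242 and 0.486). Tnnt2, the cardiac troponin T, was at 11.46 to 11.88 in stress and 11.71 to 12.02 in control, and its lowest library was stress 2.

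Fat and stromal markers were also lower in stress by group mean. The adipocyte list had 3 of 10 genes tested, all lower, with Fabp4 at -0.67 and Lpl at -0.75 (limma adjusted p = 0.146 and 0.209), and Adipoq and Plin1 under the minimum. Its summed level was 0.00245% to 0.00326% in stress and 0.00346% to 0.00573% in control. For Fabp4 and Lpl all control libraries lay above all stress libraries. Cfd, also tested, stood at 5.92 in control 2 and at 4.50 to 4.77 in the other libraries. Adipoq and Plin1 were at 3.39 and 4.08 in control 2, and at most 2.97 and 3.52 in the others. The fibroblast list had 9 of 10 lower (median -0.58), with Thy1 at -0.49 and Fap at -0.66 (limma adjusted p = 0.0769 and 0.129) and a summed level of 0.374% to 0.537% in stress and 0.486% to 1.05% in control. The smooth muscle list had 8 of 9 tested genes lower (median -0.27), with Acta2 at -0.77 and Tagln at -0.57 (limma adjusted p = 0.111 and 0.138) and a summed level of 0.0472% to 0.0567% in stress and 0.0598% to 0.0685% in control. Des, at -1.24, is counted in this list and also among the genes of muscle structure. No gene of the adipocyte, fibroblast and smooth muscle lists passed limma, and their part in the muscle values was not tested.

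Other lists were more even. Tumour epithelial markers had 6 of 10 lower (median -0.05), with Krt7 at -0.36 and Cldn7 at -0.21 (limma adjusted p = 0.221 and 0.411), and a summed level of 0.238% to 0.263% in stress and 0.245% to 0.268% in control. Nerve markers had 3 of 6 tested genes lower (median -0.03), with Prx at -0.16 (limma adjusted p = 0.363). Skin keratinocyte markers had 2 of 10 genes tested, Krt14 at -0.21 and Krt10 at 0.02 (limma adjusted p = 0.611 and 0.910). Krt1 was at 0 in all libraries or had no row. None of these lists had a gene that passed limma.

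Outside all lists of muscle genes, 6 genes had the profile nearest to the median profile of the 36, by mean absolute distance of centred log2 values over the 6 libraries. Pdlim3, a Z-disc protein, was nearest at 0.069, with log2 values of 6.84, 6.81 and 6.02 in stress, against 6.87, 7.46 and 7.59 in control. Pdk4, a kinase that restrains glucose oxidation, followed at 0.078, then Eef1a2, the elongation factor of muscle and neurons, at 0.086, and Ankrd23, a titin-associated ankyrin repeat protein, at 0.091. Rgs5, a pericyte marker, stood at 0.10 and Ptprg, a receptor phosphatase, at 0.114. Their limma adjusted p ran from 0.179 to 0.288.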

How the data were processed

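The deposited mRNA table holds log2 values that the authors had normalized, although it is labelled as counts; limma was therefore used as planned for that case, and the base 2 of the logarithm is taken, not stated. Tools named in the submitters' processing notes are kallisto 0.46.1 and bcl2fastq, with the build mm10. The depth and the step to log2 values are not given in the sources used here. Deposited miRNA counts are whole numbers per mature miRNA (counting tool not given in the sources used here); of precursor rows with the same miRNA the one with the highest total was kept (85 miRNAs). Of 35453 mRNA rows, 12658 at 0 and 26 bearing dates were left out.

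Stress was compared with control, with no covariate and two-sided, by limma 3.58.1 (trend, robust; mean log2 value of at least 4; 14098 genes) and by edgeR 4.0.16 (TMM, filterByExpr, robust quasi-likelihood; 462 miRNAs), in R 4.3.3, with Benjamini-Hochberg adjustment over each table and 0.05 as threshold. Both fits were also run on simulated data with independent noise per gene or miRNA, which lack deviations shared by many genes of a library. DESeq2 1.42.0, other filters and scalings, the replicate block and leaving out each library were alternatives. An exact permutation test of 3 against 3 cannot go below 0.1. Loci and transcript lengths came from GENCODE M21 (GRCm38). The 38 genes, the lists and the rule for named genes were chosen with earlier results of these data known. Per-library values were given in each role group for up to 4 genes with the highest level and up to 2 with the largest difference, and of each other list the 2 genes with the smallest p were named, except 1 that is not reported here; Myh2, Actn3, Myl2 and Ckmt2 were added after their values were seen.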

Additional observations from a re-analysis of the deposited data

How the results depend on the processing

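The count of mRNA genes passing limma was 5, and 11 where the mean log2 value had to reach 6, 8 with quantile normalization, 2 without variance trend and robust estimation, and 0 to 5 when single libraries were left out. With the replicate number as a block it was 0. The labels do not say that the numbers pair the libraries. Deviations of same-numbered libraries from their group means had correlations of -0.0790, 0.0815 and -0.0183 for mRNA. For miRNA these were -0.484, 0.316 and -0.130. With 3 libraries per group they cannot decide whether libraries are paired. In each of the 12 mRNA alternatives 0 of the muscle genes tested in it passed (38 without a filter, 29 at the minimum of 6, otherwise 36), and all 425 recomputed differences kept their sign. The median difference of the muscle genes ran from -0.96 without control 1 to -0.44 without stress 3. Scaling moved the median of all genes from 0.0014 to at most 0.0067.

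The count of miRNAs was 0 with edgeR, 41 with DESeq2, 69 without a filter on low counts and 0 to 82 when single libraries were left out, the 82 without control 1; with the block it was 0. Of 88 recomputed muscle miRNA values 81 kept sign and call. miR-499-5p passed without the filter (-1.58, edgeR adjusted p = 0.00507; 0.00507 to 0.444 over its alternatives). miR-486a-5p turned to -0.02 without stress 1, -0.07 without stress 3 and -0.22 without control 1, and miR-486b-5p to -0.04, -0.08 and -0.25; without control 2 both stood highest, at 0.50. The cause was not tested. Depth limits miR-208b and miR-499, and is unknown for mRNA.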
